A study of Mus musculus with 2 samples.

Results

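Cystatins are proteins that block cysteine proteases, and 8 of their genes were followed here in mouse bone marrow cells. They comprised 5 stefin copies, Stfa1, Stfa2, Stfa3, Stfa2l1 and BC100530 (current symbol Cstdc5), and 3 other cystatin genes, Cst3, Cstb and Cst7. The genes were found by name in the scanner files, each with 1 probe printed as 1 spot per array, among 30165 named genes on 39429 probes. All 8 were well above background on both arrays and so belonged to the 16996 genes measured in both cultures. The genes were chosen by their measured difference in processed intensity between the cultures, so these values are a description and no test was made on them.

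The control group was 1 array of bone marrow mononuclear cells that received no treatment, and the NYT group was 1 array of such cells given ninjin'yoeito, a herbal drug abbreviated NYT. In both groups the cells came from the femurs of C57/Bl6J mice aged 2 to 4 months, were flushed in medium with 2% serum, and were collected at day 11. Neither the dose nor how many animals gave cells is given in the sources used here. With 1 array in each group there was no replicate, so no spread between cultures, p-value or interval could be given.

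Mammalian cystatins fall into stefins, which lack a signal peptide and stay mostly inside the cell, and secreted cystatins, which pass through the secretory pathway. Both block papain-type proteases such as the lysosomal cathepsins by filling their active site. In the mouse the stefin A gene is a cluster of near-identical copies on chromosome 16, and these transcripts are known from neutrophils and their bone marrow precursors as well as from skin. Cstb, or stefin B, is made by most cells, Cst3, or cystatin C, is a widely made secreted inhibitor, and Cst7, or cystatin F, is made by immune cells and acts on cathepsins within their granules and lysosomes.

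The probe sequences are shown because the stefin copies resemble each other and the separation of their signals rests on these bases. Capitals mark the longest run that a stefin probe shared letter for letter with another stefin probe. The probes of Stfa1 and Stfa2 are shown over bases 28 to 57 and 26 to 55, and those of 2010005H15Rik and Cst7 over bases 1 to 30. All others are whole at 60 bases.
Stfa1: attcagccatgAATAAAGAAatattcctca
Stfa2: atgcggccatcAATAAAGAAgcatttttga
Stfa3: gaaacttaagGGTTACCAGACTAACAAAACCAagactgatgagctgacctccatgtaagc
Gm5483: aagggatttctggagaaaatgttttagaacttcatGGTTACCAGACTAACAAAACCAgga
Stfa2l1: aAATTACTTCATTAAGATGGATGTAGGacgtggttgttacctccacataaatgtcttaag
ENSMUST00000077110: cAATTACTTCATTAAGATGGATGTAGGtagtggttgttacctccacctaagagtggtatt
BC100530: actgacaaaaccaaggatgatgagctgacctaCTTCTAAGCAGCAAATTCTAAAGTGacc
2010005H15Rik: CTTCTAAGCAGCAAATTCTAAAGTGtcctg
Cst3: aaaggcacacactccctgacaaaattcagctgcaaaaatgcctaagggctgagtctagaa
Cstb: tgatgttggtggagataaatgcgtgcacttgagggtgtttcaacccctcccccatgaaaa
Cst7: agagagtcctttgatgacattactggagca

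Gm5483 (current symbol Cstdc4) and 2010005H15Rik (current symbol Csta2) are further stefin copies of the cluster. ENSMUST00000077110 is a transcript that the files name only by this identifier, and it was singled out after its values and its probe were seen. Its probe and that of Stfa2l1 shared a run of 26 bases and matched at 50 of 60 bases. The probes of BC100530 and 2010005H15Rik shared 25 bases, and those of Stfa3 and Gm5483 shared 22. Over the 36 pairs of stefin probes the longest shared run was 5 bases in the median and 26 at most. Over the 27 pairs of a stefin probe with the Cst3, Cstb or Cst7 probe it was 6 bases in the median and 9 at most. Only probes were compared with each other. Whether a stefin transcript also bound the probe of another copy was not tested, so the separate values of the copies are uncertain.

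Probe positions are those of the files, in mouse build mm9. The Stfa1 probe lies at chr16:36285398-36285457 on the plus strand and the Stfa2 probe at chr16:36404032-36404089 on the minus strand. The Stfa3 probe lies at chr16:36450693-36450752 and the BC100530 probe at chr16:36359525-36359584, both on the minus strand. The 60 bases of the Stfa2l1 probe span chr16:36160118-36161876 on the plus strand, which is 1759 bases of genome, so this probe crosses a splice junction. The Cst3 probe lies at chr2:148697681-148697740 on the minus strand, the Cst7 probe at chr2:150404490-150404549 on the plus strand and the Cstb probe at chr10:77890058-77890117 on the plus strand. The files pair each probe with its gene's messenger RNA and do not say which exon or untranslated region it lies in.

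All 5 stefin copies were far lower in the NYT culture, from 34.5-fold for Stfa3 to 48.8-fold for Stfa2l1. Cst7 was 3.89-fold lower and Cstb 3.12-fold higher. Cst3 was 1.40-fold higher with the arrays scaled and 1.45-fold lower without scaling. The values that follow are processed spot intensities in arbitrary units before scaling, followed by the difference after each array was divided by its 75th percentile.

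The Stfa1 spot read 16353 in the control culture and 205 in the NYT culture. The Stfa2 spot read 40800 and 486, and the Stfa3 spot 7611 and 109. The NYT values were thus a small part of the control values for each of these cytoplasmic inhibitors of papain-type proteases. The Stfa2l1 spot read 36094 in the control culture and 365 in the NYT culture, and the BC100530 spot read 28559 and 330. After scaling, the log2 differences were -5.30 for Stfa1, -5.37 for Stfa2, -5.11 for Stfa3, -5.61 for Stfa2l1 and -5.42 for BC100530. These correspond to 39.3-fold, 41.4-fold, 34.5-fold, 48.8-fold and 42.8-fold lower levels.

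**Figure D1:**
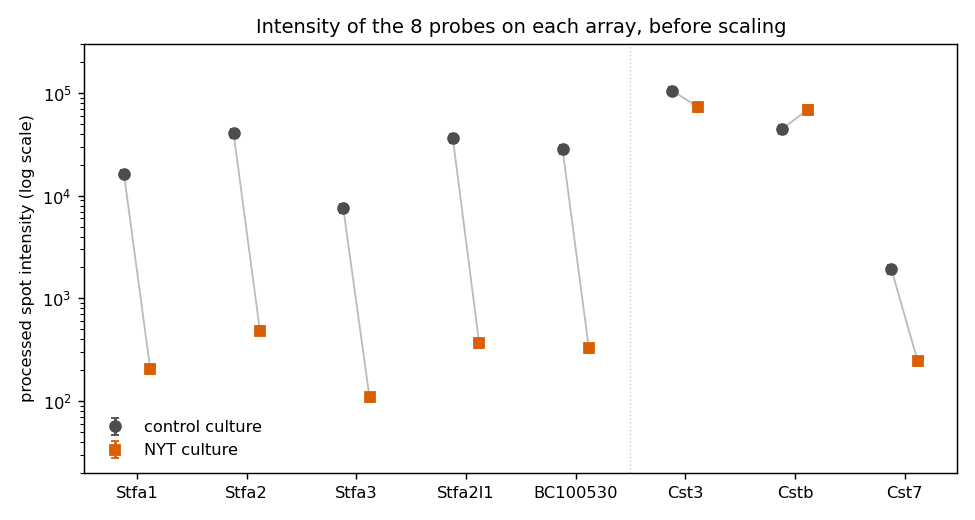
Processed spot intensity (log scale, arbitrary units, before scaling) of the 8 probes on the control array (circles) and the NYT array (squares), with the scanner software's error as bars that are mostly smaller than the points. The 5 stefin probes and Cst7 are lower on the NYT array, with Stfa2 at 40800 against 486, while Cst3 (105059 against 72685) and Cstb (44720 against 68943) stay bright on both.

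The scanner software's error of the log2 difference was 0.20 to 0.21 for each of the 8 genes, and it covers the spot and not the culture. The 5 stefin differences lay within 0.50 of each other on the log2 scale. Stfa3 and Stfa2l1, the extremes of that range, differed by 0.50 with a software error of 0.29, so the order among the copies was of the size of this error. On the NYT array the raw signal of the stefin spots was still 3.15 to 9.28 times their local background. All 5 intensities there were above 19.2, the lowest intensity of any probe called well above background on that array.

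**Figure D2:**
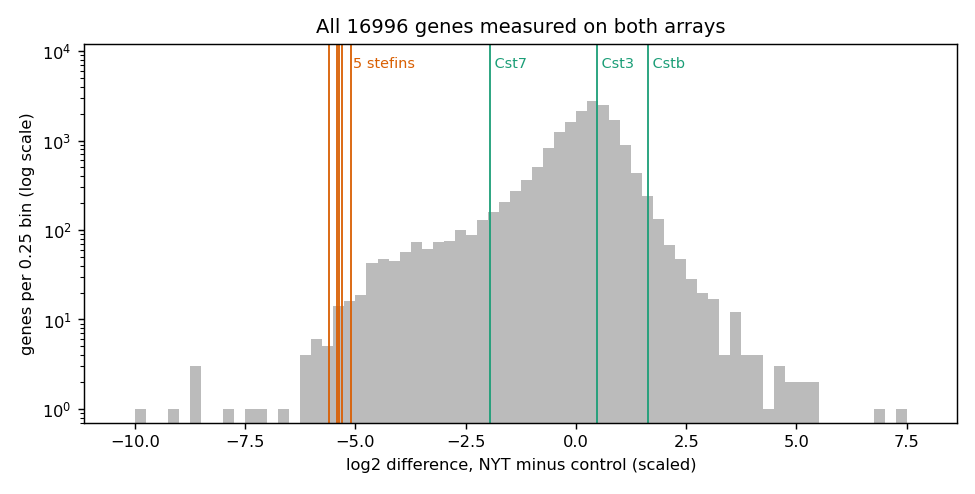
Histogram of the scaled log2 difference, NYT minus control, over the 16996 genes measured on both arrays (counts on a log scale, bins of 0.25), with vertical lines at the 8 genes. The 5 stefin lines fall between -5.61 and -5.11 in the sparse left tail, Cst7 lies at -1.96, and Cst3 and Cstb lie at 0.49 (-0.53 without scaling) and 1.64.

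Of all genes measured, 11.0% were at least 2-fold lower and 11.2% at least 2-fold higher in the NYT culture. A difference of at least 16-fold lower was reached by 1.23% of genes, and all 5 stefin copies were among them. Ranked from the lowest difference, Stfa2l1 stood at 21, BC100530 at 29, Stfa2 at 31, Stfa1 at 38 and Stfa3 at 47 of 16996 genes. These ranks describe the contrast by which the genes were chosen and support nothing further.

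The scaling itself mattered for the weaker differences. The 75th percentile of intensity was 1475 in the control culture and 728 in the NYT culture, so scaling raised each difference by 1.02 on the log2 scale. The median difference of all genes was 0.29 with scaling and -0.73 without. The split of 1868 lower and 1904 higher genes became 6190 lower (36.4% of all genes measured) and 211 higher. Relative to the median of all genes, the stefin median was -5.66, Cst7 was -2.25, Cst3 was 0.20 and Cstb was 1.36 under either choice. Without scaling, the stefin copies were 70.0-fold to 98.8-fold lower.

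In the control culture 24507 probes were well above background and in the NYT culture 22760, and no spot was saturated. The only error that the arrays themselves give beyond the software's comes from probes printed several times. Over 228 such probes, all well above background on both arrays and taken without outlier spots, the median SD of the log2 difference was 0.05. For 2010005H15Rik, a dimmer stefin copy, the log2 SD of its NYT spots was 0.11 without outliers and 0.61 with them. The 8 genes had 1 spot each, so their own spot noise is not known and can be larger than 0.05. The labels name mononuclear cells and no cell type among them. Markers of mature neutrophils, macrophages, monocytes, B cells and megakaryocytes were measured on both arrays. Erythroid markers were measured for 4 of the 7 on the array, among them Epor at 3464 in the control and 163 in the NYT culture.

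Among the 3 other cystatins the differences ran in different directions. The Cst7 spot read 1920 in the control culture and 244 in the NYT culture, a scaled log2 difference of -1.96, or 3.89-fold lower, and 7.88-fold lower without scaling. The Cstb spot read 44720 and 68943, a scaled difference of 1.64, or 3.12-fold higher. Cstb was the only one of the 8 probes brighter in the NYT culture before scaling, by 1.54-fold, which is under the 2-fold mark. The Cst3 spot read 105059 and 72685. Its scaled difference was 0.49, it was -0.05 with quantile normalization and -0.53 without scaling, so its direction was set by the scaling.

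Against the stefin median of -5.37, Cst7 stood 3.41 higher, Cst3 5.86 higher and Cstb 7.02 higher on the log2 scale. A common scaling factor cancels in these gaps. Among all genes, 5.21% had a lower difference than Cst7, 63.2% a lower one than Cst3 and 97.4% a lower one than Cstb. The 8 inhibitors therefore spread from the low tail through the middle to the high end of the distribution.

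**Figure D3:**
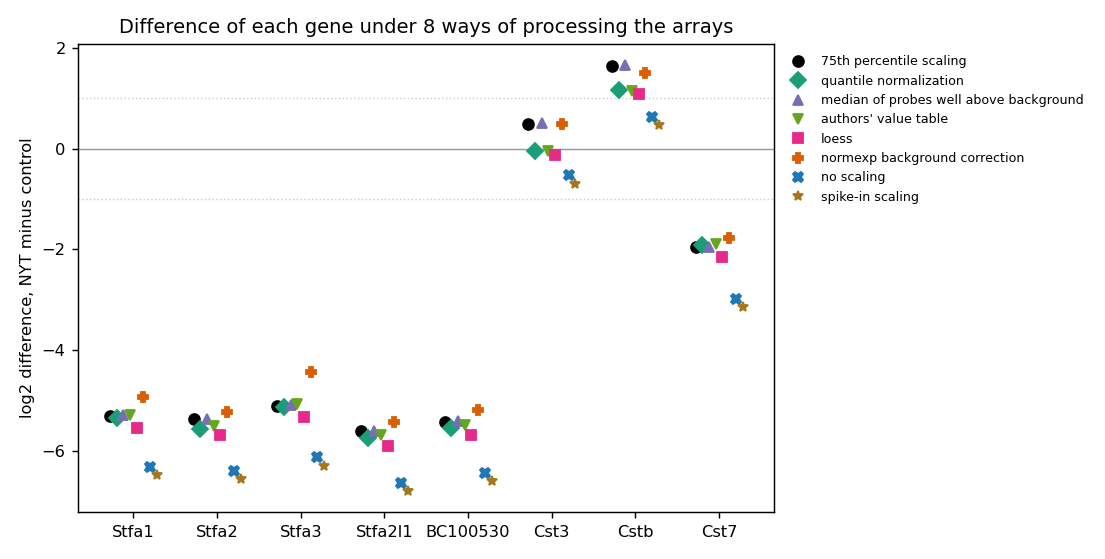
Log2 difference, NYT minus control, of each of the 8 genes under 8 ways of scaling or background-correcting the arrays, with dotted lines at 2-fold. The stefin copies lie between -6.79 and -4.44 throughout and Cst7 between -3.14 and -1.77, whereas Cst3 crosses 0 and Cstb falls under 2-fold in the unscaled (0.62) and spike-in (0.46) settings.

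The stefin cluster of chromosome 16 holds more copies than the 5. Of 12 copies listed, 10 had a probe on the array, and Cstdc3 and Cstdc7 were not matched to one. Of those 10, 7 were measured on both arrays and all 7 were at least 2-fold lower, beside 11.0% of all genes. Their median was -5.37 and their range -5.75 to -4.57, beside a median of 0.29 for all genes. The intensities of these 7 summed to 158735 in the control culture and 1792 in the NYT culture.

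Gm5483 read 26856 and 246, a scaled difference of -5.75. 2010005H15Rik was printed as 10 spots, which averaged 2461 ± 84.4 (SD over 10 spots) on the control array and 51.1 ± 3.74 (SD over 8 spots) on the NYT array. Its scaled difference was -4.57, or 23.8-fold lower. The other 2 of its NYT spots were marked as outliers by the software, the brighter at 182, and the lowest of all 10 was 39.9. These spots are repeats on 1 array, not cultures.

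Gm5416 (current symbol Csta3) read 1231 in the control culture and was not well above background in the NYT culture, where its spot read 11.4. It was at least 31.7-fold lower, taking the lowest intensity well above background on the NYT array as the bound. Neither Csta (current symbol Csta1) nor BC117090 (current symbol Cstdc6) was well above background in either culture. The transcript ENSMUST00000077110 read 15678 and 162, a difference of -5.58. The copies that could be measured were therefore lower together, and those that could not be measured give no direction.

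**Figure D4:**
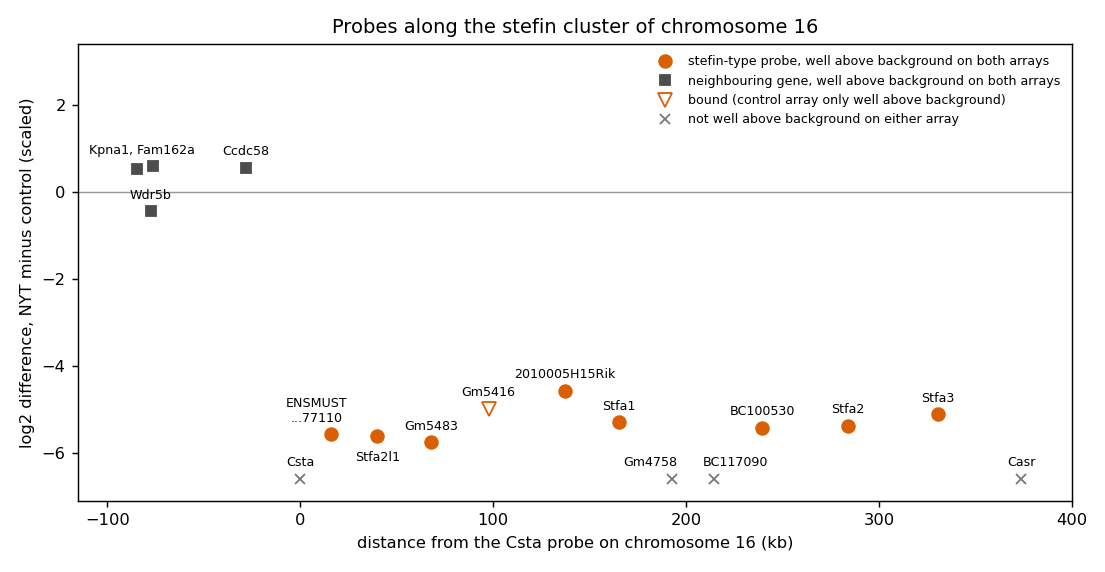
Scaled log2 difference, NYT minus control, of probes against their distance in kb from the Csta probe on chromosome 16. The stefin-type probes (circles, with an open triangle for the bound of Gm5416) lie between -5.75 and -4.57 from 16 to 331 kb, the 4 neighbouring genes (squares) lie between -0.44 and 0.61 (all lower, -1.46 to -0.41, without scaling), crosses mark probes without a value, and 2 probes without a gene symbol are left out.

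The low values ended at the border of the cluster on the side where neighbouring genes were measured. Ccdc58, the nearest gene at 28.0 kb before the Csta probe, had a scaled difference of 0.55. Fam162a, Wdr5b and Kpna1, lying 76.1 to 84.3 kb before it, had differences of 0.61, -0.44 and 0.53. Without scaling these 4 genes were all lower in the NYT culture, from -1.46 to -0.41, beside a median of -0.73 over all genes. On the far side, Casr gave no value, being too dim in both cultures. Within the cluster, a probe without a gene symbol at 74.2 kb differed by 0.27 (-0.75 without scaling), and another was at least 2.52-fold lower.

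The stretch of 110 bases before each start site is shown for the 5 stefin copies and for Cst7 as a member outside the cluster. Sequences and start sites are from RefSeq, build GRCm38.p6, which is not the build of the probe positions above, and 7 of the 8 genes had an entry. Capitals mark CACACTCATT, AGAGGAGGAG and ACCTTTAAAACC, the 3 runs of 10 or more bases that all 5 stretches share. They were thus picked from these sequences. The stretches are chr16:36277038-36277147 (plus strand) for Stfa1, chr16:36408364-36408473 (minus) for Stfa2, chr16:36455393-36455502 (minus) for Stfa3, chr16:36156701-36156810 (plus) for Stfa2l1, chr16:36367571-36367680 (minus) for Cstdc5, the current symbol of BC100530, and chr2:150570305-150570414 (plus) for Cst7.
Stfa1: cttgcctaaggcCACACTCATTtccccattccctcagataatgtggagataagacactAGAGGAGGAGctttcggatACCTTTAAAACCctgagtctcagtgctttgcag
Stfa2: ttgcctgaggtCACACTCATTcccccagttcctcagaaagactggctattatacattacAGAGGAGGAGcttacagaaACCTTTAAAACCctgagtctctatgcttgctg
Stfa3: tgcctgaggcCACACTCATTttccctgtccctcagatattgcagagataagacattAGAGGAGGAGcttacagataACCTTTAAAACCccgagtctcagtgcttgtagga
Stfa2l1: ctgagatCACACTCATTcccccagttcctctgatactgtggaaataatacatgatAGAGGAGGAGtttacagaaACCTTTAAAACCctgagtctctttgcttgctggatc
Cstdc5: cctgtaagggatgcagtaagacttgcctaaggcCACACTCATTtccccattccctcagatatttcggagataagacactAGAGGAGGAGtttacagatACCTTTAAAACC
Cst7: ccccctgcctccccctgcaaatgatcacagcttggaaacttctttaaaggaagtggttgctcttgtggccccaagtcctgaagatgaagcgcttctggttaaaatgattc

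Over 250 bases before the start, the 10 pairs of stefin promoters were 76.8% to 90.8% identical, with a median of 81.6%. The 10 pairs of a stefin promoter with that of Cst3 or Cst7 were 41.2% to 50% identical. On both strands, ACCTTTAAAACC occurred in 0.0335% of 32851 promoters of this length, AGAGGAGGAG in 0.816% and CACACTCATT in 0.0822%. Those were 11, 268 and 27 promoters, of which 8, 7 and 8 were stefin windows. The shares thus include the sequences from which the runs were picked and are no separate measure of rarity. ACCTTTAAAACC began 36 bases before the start in Stfa2l1, 34 in Stfa3, 33 in Stfa1, 32 in Stfa2 and 12 in Cstdc5. It lay thus at a similar distance in 4 of the 5 copies. None of the 3 runs was in the Cst3 or Cst7 window, where no match says only that these letters are absent from 250 bases.

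The stretch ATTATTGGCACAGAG, the longest run common to the 5 windows of 250 bases, occurred in 0.0152% of promoters. Those were only the 5 windows from which it was taken. TATAAA, the core of a TATA box, occurred in 12.4% of promoters and in none of the 11 stefin windows that RefSeq gave. TTGCNNAA, a letter pattern bound by C/EBP factors, occurred in 9.56% of promoters and in 4 of the 11 stefin windows. Those were the windows of Stfa1, Cstdc5, Csta3 and Cstdc3. GAGGAAG, a pattern bound by PU.1, occurred in 10.6% of promoters and in 4 of the 11, those of Stfa1, Cstdc5, Cstdc4 and Csta1. C/EBP factors and PU.1 drive granulocyte and myeloid genes. A match is a description of the sequence only, and no binding was measured here.

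The remaining cystatins of the secreted, fetuin and kininogen type were mostly dark on these arrays. Of 14 listed genes, 13 had a probe and 3 were measured on both arrays, with a median of -0.31. Of the 3, 1 was at least 2-fold lower and none higher, beside 11.0% and 11.2% of all genes. Cst6, or cystatin E/M, which blocks legumain and cathepsins, read 630 and 97.5, a scaled difference of -1.67. Kng1, a kininogen, read 59.5 and 23.7, a difference of -0.31 that was 0.47 with normexp background correction. Hrg, the histidine-rich glycoprotein, read 33.6 and 25.9, a difference of 0.65 that was -0.37 without scaling. Ahsg, or fetuin A, read 68.1 in the NYT culture and was not well above background in the control culture, so it was at least 5.30-fold higher. Cst9 was above background only in the control culture with no fold to give, and 8 genes were above it on neither array.

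Relatives that carry a cystatin fold without being classed as cystatins included products of neutrophil granules. Of 5 listed, 3 were measured, with a median of -3.20, and 2 of them were at least 2-fold lower, beside 11.0% of all genes. Camp, the precursor of the antimicrobial peptide cathelicidin, read 127928 and 5141, a difference of -3.62, and its second probe gave -3.74. Ngp, neutrophilic granule protein, read 95859 and 5162, a difference of -3.20. Lxn, latexin, an inhibitor of carboxypeptidases, read 8028 and 5963, a difference of 0.59 that was -0.43 without scaling. Rarres1 was measured only in the control culture and was at least 2.05-fold lower.

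The cysteine proteases that cystatins block were not low as a group. All 11 listed were measured, 2 were at least 2-fold lower and 3 at least 2-fold higher, beside 11.0% and 11.2% of all genes. Their median was 0.46 beside 0.29 for all genes. Without scaling 5 were at least 2-fold lower, beside 36.4% of all genes, and 1, Ctsk, was at least 2-fold higher. Ctsw, a cathepsin of T and NK cells, read 3319 and 50.6, a difference of -5.02. Ctsk, the collagen-cutting cathepsin of osteoclasts, read 3115 and 7526, a difference of 2.29. Ctsz, an exopeptidase, read 113155 and 149030, a difference of 1.42, and Ctsb, an abundant lysosomal cathepsin, read 183185 and 228419, a difference of 1.34, but both fell under 2-fold without scaling. The group's median without scaling was -0.56, so its sign was set by the scaling, while the gap of more than 5 on the log2 scale to the stefins was not.

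Protease inhibitors of other families were lower in part. Of 29 listed, 25 were measured, with a median of -1.96. At least 2-fold lower were 14 and at least 2-fold higher 3, beside 11.0% and 11.2% of all genes. Without scaling 17 were lower, beside 36.4% of all genes. None reached 2-fold higher, as only 211 of 16996 genes did. Serpina3g, an intracellular serpin that blocks cathepsins, read 17746 and 246, a difference of -5.15. Serpine2, an inhibitor of thrombin and plasminogen activators, differed by -3.92, and Timp3, an inhibitor of metalloproteinases, by -3.72. Serpina3f was measured only in the control culture, where it read 778, and was at least 20-fold lower. The 3 higher genes were Serpinb6b at 1.82, Spint2 at 1.49 with a second probe at -1.06, and Reck at 1.04, whose spots read 35.0 and 35.5 before scaling and which was -2.16 by a brighter probe when dim probes were kept.

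**Figure D5:**
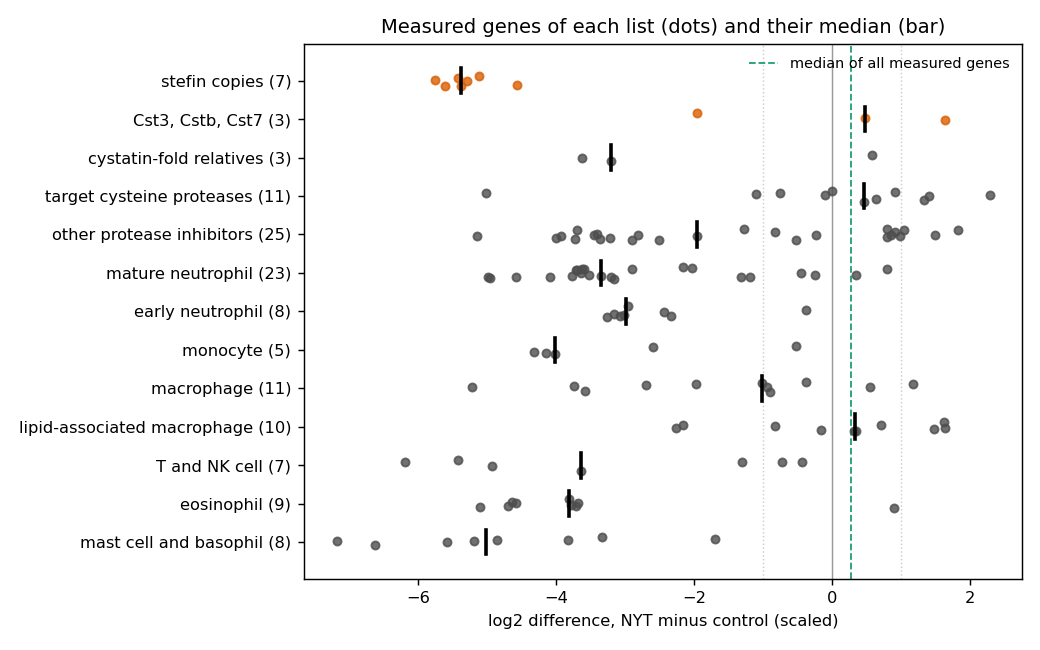
Scaled log2 difference, NYT minus control, of each measured gene (dots) in lists of inhibitors, proteases and cell type markers, with the list's median as a bar, the number measured in brackets and a dashed line at the median of all genes. The stefin copies have a median of -5.37, mature neutrophil markers -3.35, mast cell and basophil markers -5.02 and target cysteine proteases 0.46 (-0.56 without scaling).

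Markers of neutrophils, which are bone marrow cells known for stefin A copies, were lower in the same culture. Of 23 mature neutrophil markers, all measured, 19 were at least 2-fold lower, beside 11.0% of all genes. Their median was -3.35 and their summed intensity 1923920 in the control culture and 511395 in the NYT culture. Cxcr2, a chemokine receptor, differed by -4.99, Retnlg, a secreted resistin-like protein, by -4.96 and Mmp9, a granule gelatinase, by -4.58. The 4 markers under 2-fold were Anxa1 at 0.81, Lyz2 at 0.35, S100a9 at -0.25 and Csf3r at -0.44. Without scaling Anxa1 was at -0.21 and Lyz2 at -0.67. Each of the 5 stefin copies, and Gm5483 too, had a lower difference than every one of these 23 markers, and 2010005H15Rik did not. For Stfa3 this rested on 0.12 on the log2 scale, which is under the software error, and with quantile normalization, the authors' value table and normexp it lay 0.09, 0.09 and 0.42 above the lowest marker. The other 4 stefin copies were below all 23 markers under each scaling and background correction run. For Stfa1 the gap was under the software error with normexp, at -4.94 beside -4.86 for Retnlg. The 5 copies were chosen by this same contrast, so their place below the markers is a description only. Of 8 early neutrophil markers, 7 were lower, with a median of -2.99 and sums of 84037 and 7685. Camp and Ngp are counted among both the mature neutrophil markers and the cystatin-fold relatives. In RNA from a whole culture, fewer cells of a type and less RNA per cell cannot be told apart, and the part of neutrophil numbers in the stefin values was not tested.

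Markers of other cells that these cultures could hold differed as well, to unequal degrees. Lower and higher are calls of at least 2-fold with scaling, reached by 11.0% and 11.2% of all genes. Mast cell and basophil markers had a median of -5.02, with 8 of 8 measured lower, and eosinophil markers one of -3.82, with 8 of 9 lower. T and NK cell markers had a median of -3.64 with 5 of 7 measured lower, and another 7, among them Cd8a, Gzma and Ncr1, were well above background only in the control culture. Monocyte markers had a median of -4.02 with 4 of 5 lower, and megakaryocyte markers one of -4.41 with 6 of 6 lower. B cell markers had a median of -0.39 with 3 of 8 lower and 5 under 2-fold, and dendritic cell markers one of -1.80 with 5 of 8 lower and 3 under 2-fold. Of 4 measured erythroid markers 2 were lower and 1 higher, and the latter, Slc4a1, fell under 2-fold without scaling. Stromal markers had a median of -2.70 with 4 of 5 lower and 1 higher, a call also lost without scaling. Over the 14 cell type lists, 9 of 114 measured markers were at or below the difference of Stfa3, including Cpa3 and Mcpt8 of mast cells and basophils and Ccl5 of T and NK cells. None of the 9 was a neutrophil marker.

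Macrophage lists held lower and higher genes with scaling. Of 11 measured macrophage markers, 6 were lower and 1 higher, with a median of -1.01, where 11.0% of all genes were lower and 11.2% higher. Without scaling 9 were lower and none higher, where 36.4% of all genes were lower and 211 of 16996 higher. Of 10 markers of lipid-associated macrophages, 2 were lower and 3 higher, with a median of 0.33 that was -0.69 without scaling, where 4 were lower and none reached 2-fold higher. The higher ones with scaling were Gpnmb at 1.65, Trem2 at 1.63 and Spp1 at 1.48, beside 1.64 for Cstb. The lower ones were Axl at -2.26 and Itgax at -2.15, and the other 5 were under 2-fold. Epithelial cells also make stefin A. Of 6 epithelial markers 3 were measured and 1, Krt18, was lower, with a median of 0.54 (-0.48 without scaling). Epcam and Cdh1 were well above background only in the control culture. The intensities of the 3 measured genes summed to 620 in the control culture and 110 in the NYT culture. With the probes that were not measured on both arrays, the list summed to 1329 and 139. The part of any of these cells in the values of the 8 genes was not tested.

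The genes nearest to the stefin median in difference, among brighter genes outside the family, were Cxcr6 at -5.25, C1qa at -5.21, Hdc at -5.59, Serpina3g at -5.15 and Thy1 at -5.10. This likeness was measured as the distance between single differences from 1 pair of arrays. Cxcr6 and Thy1 are known from T and NK cells, C1qa from macrophages and Hdc from mast cells and basophils. Altogether 47 genes were at or below the difference of Stfa3, and 6 of these were stefin copies.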

How the data were processed

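The authors deposited 1-colour Agilent scanner output with an intensity for each spot. Per the file headers it was made with Feature Extraction 10.7.1.1, and per the submitters' processing notes with version 9.5.1.1. The files' processed intensity was detrended and was not scaled between arrays, per the file headers. Flags for outliers and for signal well above background were deposited with it, and an authors' value table served as an alternative. Here the log2 of the processed intensity was taken minus each array's 75th percentile of it, spots of 1 probe were averaged without outliers, and the brightest measured probe stood for a gene. A gene counted as measured when well above background on both arrays, and as lower or higher at 2-fold or more. A probe above background on 1 array only got a bound. With 1 array per group no test was made.

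The members and lists were chosen with earlier results of these data known. Named genes were all 8 members, the measured stefin copies, up to 4 genes with the largest difference per list (all where 5 or fewer were measured), up to 3 per cell type list, and the 5 genes nearest to the stefin median among genes brighter than the median. Some genes that this rule names are not reported here. Probes were named through RefSeq accessions or symbols, or by the files for 8215 of 39429. Python 3.11.15 with pandas 2.3.3 was used, and R 4.3.3 with limma 3.58.1 for normexp background correction (offset 50). The calculation was tested on simulated data. The number of arrays limits the precision.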

Additional observations from a re-analysis of the deposited data

How the results depend on the processing

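Each result was recomputed under other scalings, background corrections, filters and probe rules. Cstb, Cst7 and the stefin median kept their sign under each setting, while among genes named elsewhere Reck went from 1.04 to -2.16 when dim probes were kept. The 5 stefin copies were at least 2-fold lower under each setting run, from -6.79 (Stfa2l1, spike-in scaling) to -4.44 (Stfa3, normexp). Without scaling the medians and values were -6.39 for the stefins, -0.53 for Cst3, 0.62 for Cstb, -2.98 for Cst7, -1.33 for further cystatins, -4.21 for cystatin-fold relatives, -0.56 for target proteases and -2.98 for other inhibitors. With spike-in scaling they were, in that order, -6.55, -0.69, 0.46, -3.14, -1.49, -4.38, -0.72 and -3.14. With loess they were -5.68 for the stefins, -0.12 for Cst3, 1.09 for Cstb, -0.75 for further cystatins, -3.65 for cystatin-fold relatives, -0.18 for target proteases and -2.21 for other inhibitors. With quantile normalization they were -0.051 for Cst3, 1.16 for Cstb, -3.57 for cystatin-fold relatives and -0.11 for target proteases, and with the authors' value table -0.053, 1.15, -3.53 and -0.11. The gap to the stefin median was 5.50, 5.56 and 5.44 for Cst3 with quantile, loess and the authors' table, 6.71, 6.76 and 6.64 for Cstb, and 6.70 for Cstb with normexp. For Cst7 it was 3.63 with quantile normalization. The median of further cystatins was 0.47 with normexp, 0.55 with no filter on dim probes and 1.02 with the other detection flag, and that of cystatin-fold relatives was -2.52 with either change of filter. Other inhibitors had -2.33 with the other flag. Genes at least 2-fold lower numbered 6190 without scaling, 7485 with spike-in scaling and 3414 when dim probes were kept, and 1167 were at least 3-fold lower. Genes at least 2-fold higher numbered 211, 166 and 4750 under those settings, 940 with loess and 3572 with the other flag, and 507 were at least 3-fold higher. The cause of these shifts was not tested beyond the scaling itself, which moves each value of an array alike only where 1 factor per array is used. Quantile normalization, loess and normexp moved values unequally. No paired analysis was possible because there was only 1 array, and so 1 replicate, per group. Signal over background limits the stefin values in the NYT culture, where the raw signal of the 5 members was 3.15 (Stfa3) to 9.28 times the local background and that of 2010005H15Rik 2.23 times.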
